A study of Homo sapiens with 6 samples.

Results

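The 42 genes described here are interferon-stimulated genes, chosen by a list of symbols that was matched to the rows of a table that listed 26184 genes and loci. All 42 symbols were found, each on 1 row, and they lay on 16 chromosomes. RNA was sequenced from Huh7, an established human hepatocellular carcinoma line without an engineered genotype, in 2 states with 3 samples each. Huh7 P was the parental line and had received no drug. Huh7 LR was a single lenvatinib-resistant line derived from it by 10 months of continuous exposure to lenvatinib, an inhibitor of several receptor tyrosine kinases, with the dose raised from 1 to 20 μM. With 1 resistant line, the effects of resistance, of the drug and of long culture cannot be told apart, and the line was kept in medium with 20 μM lenvatinib, while the medium at harvest for RNA is not stated separately. The study describes the 3 samples of each line as independent, without saying how far they were grown apart, so p-values measure the spread between these samples.

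Interferons are secreted proteins that bind receptors on the cell surface and activate kinases of the JAK family, such as JAK1 and TYK2. These phosphorylate STAT proteins. A complex with STAT2 and IRF9 binds a DNA element, the interferon-stimulated response element (ISRE), and other STAT dimers bind the gamma-activated site (GAS). The genes switched on in this way include sensors of viral RNA, enzymes that degrade or modify RNA, proteins that block viral entry or translation, and the ubiquitin-like modifier ISG15, and in hepatocytes they are known for limiting hepatitis viruses.

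The ISRE and GAS letters near the starts of these genes are shown first, because these are the elements through which interferon is known to act, and some higher, some lower and some uncalled members held them. The search took exact matches of GAAANNGAAA (the core of the ISRE) and TTCNNNGAA (the GAS) on both strands, from 250 bases before to 50 bases after the start of each gene, in RefSeq promoter sequences of GRCh38.p14. A promoter was given for 33 of the 42 members. IFIT2, USP18, OAS2, OASL, IRF7, TRIM22, MX2, DHX58 and IFITM2 had none in the table used. The ISRE core was present in 21 of these 33 promoters (63.6%), against 1255 of all 35116 promoters (3.57%). The GAS was present in 9 of 33 (27.3%), against 2689 of all promoters (7.66%). The stretches below read 5′ to 3′ on the strand of the gene, with the matches in capitals. A match on the opposite strand shows as the reverse complement of the letters, and neighbouring matches may overlap. The first 6 belong to genes that were higher in Huh7 LR, OAS3 to a gene that was lower, DDX60 and IFIT3 to genes with no call, and IFI44L to a gene without a read in any library.
IFI6, chr1:27672261-27672363, minus strand: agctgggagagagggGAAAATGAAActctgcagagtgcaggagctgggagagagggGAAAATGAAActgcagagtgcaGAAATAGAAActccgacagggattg
IFIH1, chr2:162318685-162318858, minus strand: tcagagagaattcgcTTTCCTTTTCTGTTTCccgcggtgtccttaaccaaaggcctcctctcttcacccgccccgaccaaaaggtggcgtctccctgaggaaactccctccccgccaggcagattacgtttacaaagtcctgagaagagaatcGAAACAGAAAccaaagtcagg
HERC5, chr4:88456979-88457069, plus strand: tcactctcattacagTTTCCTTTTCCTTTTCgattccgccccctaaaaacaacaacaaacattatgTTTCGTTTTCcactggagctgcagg
ISG15, chr1:1013369-1013414, plus strand: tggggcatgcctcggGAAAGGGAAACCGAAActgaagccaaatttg
IFITM3, chr11:320871-320927, minus strand: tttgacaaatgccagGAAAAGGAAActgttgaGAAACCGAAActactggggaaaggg
IFIT1, chr10:89392492-89392544, plus strand: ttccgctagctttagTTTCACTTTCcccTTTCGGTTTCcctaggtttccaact
OAS3, chr12:112938316-112938473, plus strand: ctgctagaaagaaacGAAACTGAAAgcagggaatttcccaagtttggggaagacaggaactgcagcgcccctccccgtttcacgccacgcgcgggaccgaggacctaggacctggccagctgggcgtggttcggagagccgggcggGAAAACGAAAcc
DDX60, chr4:168318781-168318855, minus strand: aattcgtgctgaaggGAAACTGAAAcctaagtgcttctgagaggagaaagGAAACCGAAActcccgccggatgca
IFIT3, chr10:89327826-89327899, plus strand: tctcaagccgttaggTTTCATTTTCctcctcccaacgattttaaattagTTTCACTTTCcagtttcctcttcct
IFI44L, chr1:78620269-78620399, plus strand: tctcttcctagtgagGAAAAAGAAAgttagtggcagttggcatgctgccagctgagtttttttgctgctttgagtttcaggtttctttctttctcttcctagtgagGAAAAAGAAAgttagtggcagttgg

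IFI6, IFIH1 and HERC5 each had 3 matches of the ISRE core, and in HERC5, ISG15 and IFIH1 a pair of matches overlapped. OAS3 had 1 match far from its start and 1 next to it. Among the members with a promoter, the core was found in 8 of the 12 that were higher in Huh7 LR, 2 of the 4 that were lower, 7 of the 10 tested without a call and 4 of the 7 with too few reads for a test. The GAS was found in 1 of the 12 higher members, which was IRF1, in 2 of the 4 lower members, among them IFI35, in 5 of the 10 without a call and in 1 of the 7 not tested. The GAS stretches of the transcription factor gene IRF1 and of IFI35 are printed for that reason.
IRF1, chr5:132490874-132490912, minus strand: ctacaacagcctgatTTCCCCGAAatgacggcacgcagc
IFI35, chr17:43006747-43006783, plus strand: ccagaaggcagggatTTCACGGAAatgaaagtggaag

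These matches are a description of the letters near the annotated starts and say nothing of the binding of a factor in these cells.

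**Figure D1:**
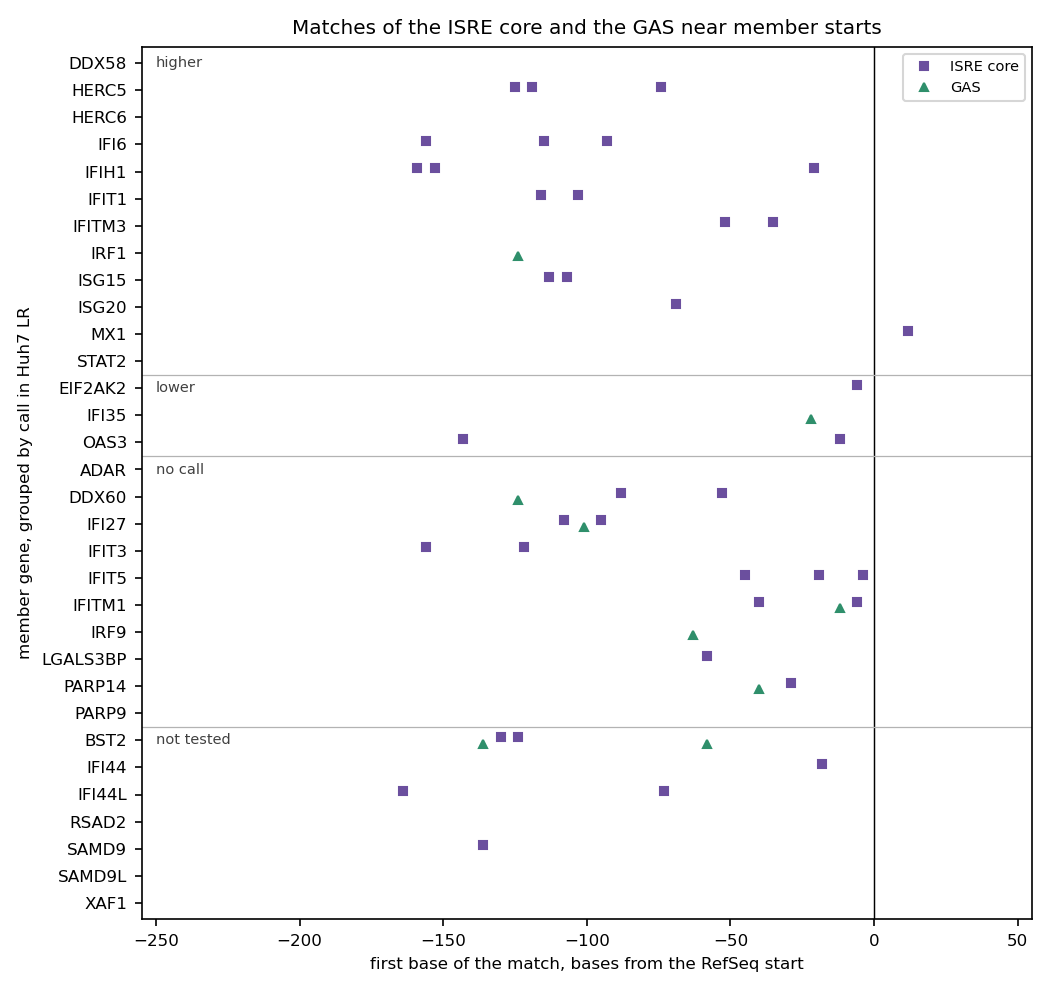
Position of the first base of each ISRE core match (squares) and GAS match (triangles) in bases from the RefSeq start, for 32 of the 33 members with a promoter, grouped by their call in Huh7 LR (OAS1 is not drawn). ISRE core matches stand in every group, in 8 of 12 higher, 2 of 4 lower, 7 of 10 uncalled and 4 of 7 untested members.

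The table held whole read counts, with 62738937 to 71427573 counts per Huh7 P library and 63233655 to 70768720 per Huh7 LR library, and levels are given as CPM, counts for each 1000000 of the library after scaling by TMM factors. Without that scaling 3 counts corresponded to 0.042 to 0.0478 CPM. Levels of different genes are compared only by the deposited FPKM, which divide by length. The hepatocyte markers looked for were all expressed in both lines (9 of 9), with albumin (ALB) at a mean of 13000 CPM in Huh7 P and 21600 CPM in Huh7 LR. The leukocyte markers HLA-DRA and TYROBP and the stromal and endothelial markers DCN and CDH5 had 0 counts in all 6 libraries. Of the 9 hepatocyte markers 5 were higher in Huh7 LR, among them the fibrinogen gene FGB, with means of 175 and 984 CPM, and 0 were lower. Of the leukocyte markers, 4 of 8 were tested and 2 were lower, LYZ (lysozyme) with means of 63.7 and 9.19 CPM and CD68 with 68.3 and 46.5 CPM. Of the fibroblast and endothelial markers 4 of 9 were tested and called higher, among them PECAM1 with 44.0 and 68.7 CPM and COL1A1 with 1.28 and 4.59 CPM, while VWF passed the filter on low counts only through its Huh7 LR libraries. By the same rule, an adjusted p under 0.05, 23.3% of all features tested were higher in Huh7 LR and 22.4% were lower. The part of these markers in the results below was not tested. In bulk RNA, fewer cells that express a gene and less RNA per cell cannot be told apart.

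Of the 42 members, 32 had enough reads for a test and 10 did not. Differences were tested with the quasi-likelihood test of edgeR, and p-values were adjusted by the Benjamini-Hochberg method over all 17531 genes and loci tested (the edgeR adjusted p). At an edgeR adjusted p under 0.05, 14 of the 32 tested members were higher in Huh7 LR (43.8%) and 5 were lower (15.6%), while 13 had no call. Over all features tested, 23.3% were higher and 22.4% were lower by the same rule. With the stricter rule of an edgeR adjusted p under 0.001 and a change of more than 2-fold, 8 members were higher and 0 were lower, against 4.43% and 1.78% of all features. The 14 and the 8 both included IFITM2, which passed the filter on low counts only through its Huh7 LR libraries, as did IFITM1, which had no call. When each of the 6 libraries had to hold 10 counts or more, 30 members were tested and 13 were higher, 7 of them past the stricter rule. For the lower direction, 5 members had an unadjusted p under 0.05, and DESeq2 also called 0 by the stricter rule. The higher count fell to 5 when Huh7 P 1, Huh7 P 2, Huh7 P 3 or Huh7 LR 3 was left out.

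All 3 Huh7 LR libraries stood above all 3 Huh7 P libraries for 16 tested members (IFITM2 among them), and below them for 6, against 28.2% and 27.7% of all features. The other 10 overlapped. The median log2 fold change of the 32 tested members was 0.47, with 23 positive and 9 negative values, against a median of 0.00 over all features. It is the same with IFITM2 at its lower bound. On log2 FPKM with limma, where 25 members passed the filter, the median was 0.27 with a pseudocount of 0.1 and 0.16 with a pseudocount of 1. Taken by library, the median log2 difference of the tested members from the Huh7 P mean was 0.45 in Huh7 LR 1, 0.21 in Huh7 LR 2 and 0.34 in Huh7 LR 3, and between 0.00 and 0.01 in the Huh7 P libraries.

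**Figure D2:**
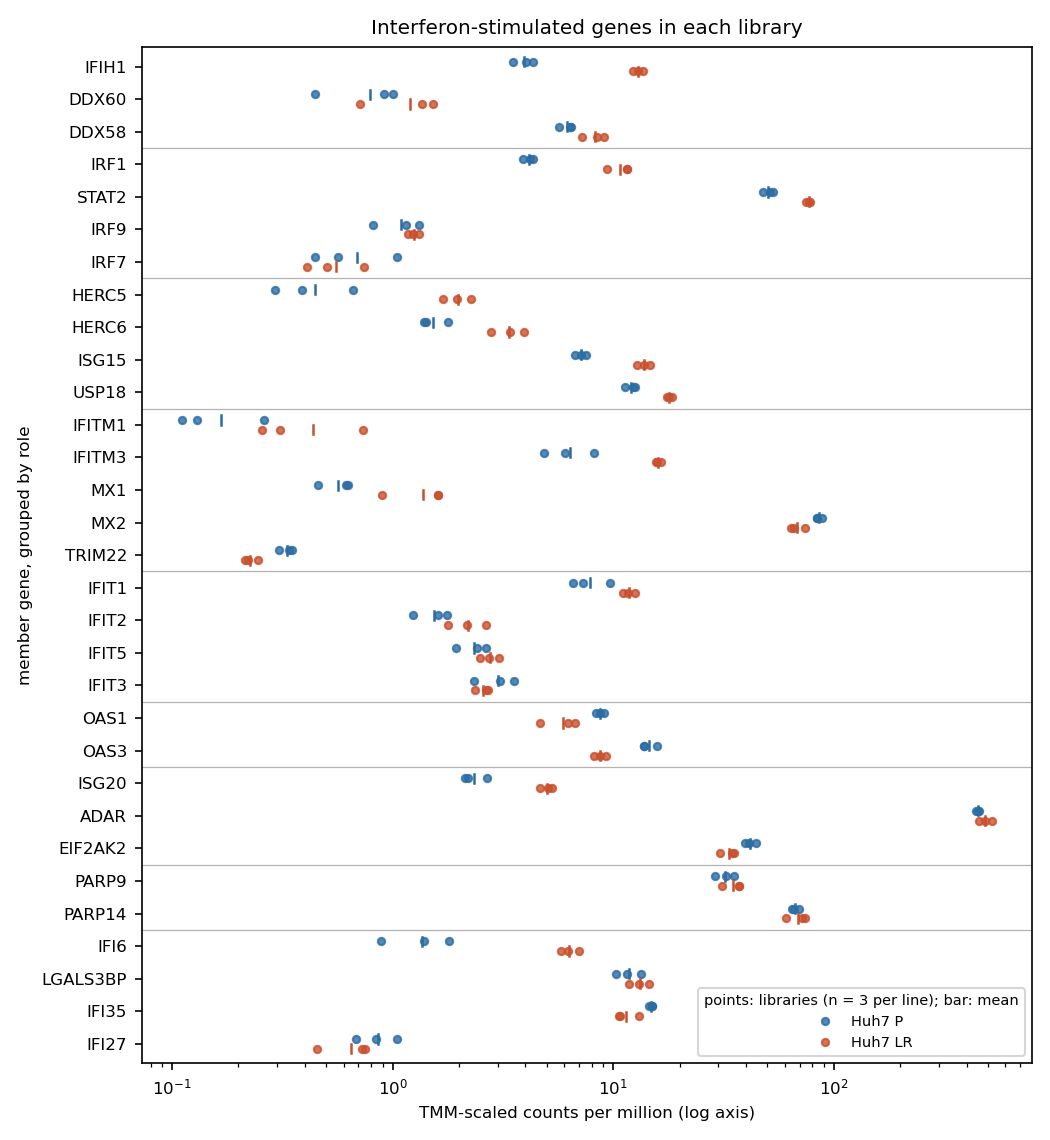
Level of 31 tested members in each library, in TMM-scaled CPM on a log axis, with 3 libraries per line as points and the mean as a bar, grouped by role. IFITM2 is left out because its 3 Huh7 P libraries had 0 counts, and the Huh7 LR points lie clear to the right for genes such as IFIH1, HERC5 and IFI6 and clear to the left for OAS3, OAS1 and MX2.

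Per length, the highest members were the same 2 in both lines. ADAR, which edits adenosine to inosine in double-stranded RNA, had a mean of 63.8 FPKM in Huh7 P and 70.3 FPKM in Huh7 LR, and MX2, a dynamin-like GTPase that restricts viruses at the nucleus, had 35.7 and 29.5 FPKM. STAT2 followed with 15.1 and 23.1 FPKM. ISG15 was at 10.0 FPKM in Huh7 P and 19.7 FPKM in Huh7 LR, and IFITM3 at 7.25 and 18.5 FPKM, and both means were below that of IFI35 in Huh7 P and above it in Huh7 LR (11.0 and 8.67 FPKM). Much lower, HERC5 was at 0.114 and 0.522 FPKM and MX1 at 0.148 and 0.367 FPKM.

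The sensors of double-stranded RNA begin the pathway inside the cell. IFIH1, which encodes MDA5, the sensor of long double-stranded RNA, was at 3.53, 4.31 and 4.01 CPM in the 3 Huh7 P libraries and at 13.7, 12.3 and 13.0 CPM in the 3 Huh7 LR libraries. Every Huh7 LR library was far above every Huh7 P library. The log2 fold change was 1.72 ± 0.12 (SE, n = 3 per line), a 3.30-fold difference with a 95% interval of 2.74 to 3.96 and an edgeR adjusted p of 1.74e-06. DDX58, which encodes RIG-I, the sensor of RNA ends with a triphosphate, was at 5.66, 6.42 and 6.38 CPM in Huh7 P and 9.10, 7.25 and 8.46 CPM in Huh7 LR. The groups did not overlap and the difference was smaller, at a log2 fold change of 0.43 ± 0.13 (edgeR adjusted p = 0.0174), and it missed the threshold without Huh7 P 1, Huh7 LR 1 or Huh7 LR 3, with edgeR adjusted p values of 0.0508 to 0.0691. DDX60, a helicase placed beside RIG-I, overlapped between the lines, with 0.446 to 1.00 CPM in Huh7 P and 0.714 to 1.53 CPM in Huh7 LR (edgeR adjusted p = 0.195). DHX58, which encodes LGP2, had in all 11 counts from Huh7 P and 21 from Huh7 LR and was not tested.

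The transcription factors among the members were split. IRF1, which drives both interferon genes and their targets, was at 4.32, 3.91 and 4.19 CPM in Huh7 P and 9.33, 11.5 and 11.5 CPM in Huh7 LR. The groups were well apart, with a 2.60-fold difference (95% interval 2.14 to 3.15, edgeR adjusted p = 1.06e-05). IRF1 shares 469 exon bases (6.01% of its exons) with AC116366.3 on the opposite strand, whose level was 0.399, 4.87 and 1.73 CPM in the Huh7 LR libraries, and 1716 exon bases with C5orf56, which is not a row of the table. Reads from opposite strands cannot be told apart in counts made without strand, and how strand was treated is not given in the sources used here. With the counts of AC116366.3 added, the log2 fold change of IRF1 was 1.58 in place of 1.38.

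STAT2, which carries the activation domain of the ISRE-binding complex, was at 52.8, 51.3 and 47.6 CPM in Huh7 P and 74.9, 77.4 and 78.3 CPM in Huh7 LR. Every Huh7 LR library was higher, with a log2 fold change of 0.60 ± 0.07 (edgeR adjusted p = 4.26e-05). IRF9, the DNA-binding part of that complex, was at 1.32, 1.15 and 0.811 CPM in Huh7 P and 1.32, 1.24 and 1.17 CPM in Huh7 LR. These groups overlapped (edgeR adjusted p = 0.570). The row of AL136295.5, which shares 1838 exon bases with IRF9 on the same strand (48.4% of the IRF9 exons), had a mean of 20.0 CPM in Huh7 P and 23.8 CPM in Huh7 LR. Per length, IRF9 was at 0.722 and 0.870 FPKM and AL136295.5 at 3.82 and 4.63 FPKM. With both rows summed, the log2 fold change was 0.25 and the edgeR adjusted p 0.0210, and how reads over the shared exons were divided was not examined, so the level of IRF9 itself is uncertain. IRF7, the amplifier of interferon-alpha transcription, was low, at 1.05, 0.567 and 0.444 CPM in Huh7 P and 0.506, 0.742 and 0.410 CPM in Huh7 LR, with overlap and no call (edgeR adjusted p = 0.542).

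**Figure D3:**
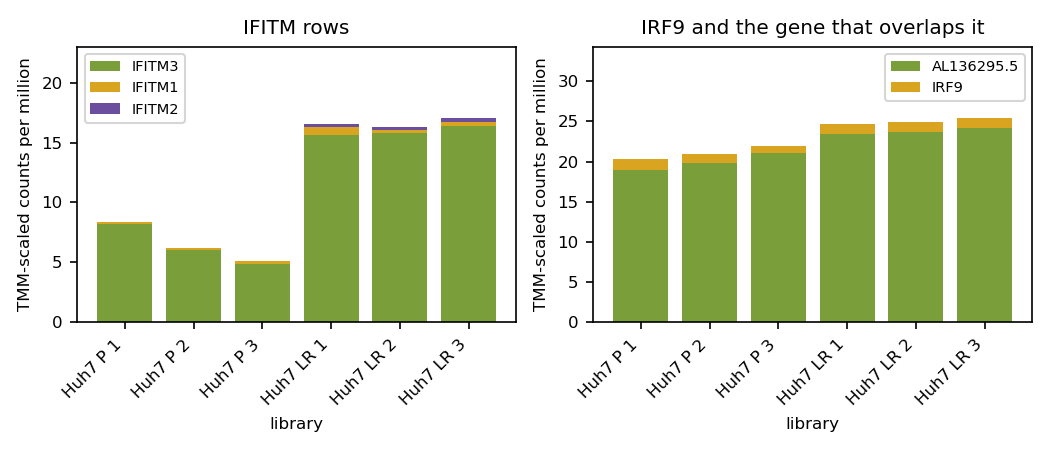
Stacked TMM-scaled CPM in each library for the 3 IFITM rows (left) and for IRF9 with the overlapping gene AL136295.5 (right). IFITM3 holds 94.3% to 98.7% of the summed IFITM counts, the Huh7 LR bars stand about 16 to 17 CPM high, and the IRF9 row adds 0.811 to 1.32 CPM to that of AL136295.5, in counts that are not divided by length.

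ISG15 is joined to other proteins by a cascade that ends in the ligase HERC5, and USP18 removes it. All 4 members of this group were called higher in Huh7 LR, against 23.3% of all features. ISG15 was at 7.51, 6.74 and 7.16 CPM in Huh7 P and 12.8, 14.7 and 13.8 CPM in Huh7 LR, without overlap, which made a 1.93-fold difference (95% interval 1.64 to 2.27, edgeR adjusted p = 4.06e-05). HERC5 was at 0.390, 0.292 and 0.658 CPM in Huh7 P and 1.95, 2.27 and 1.69 CPM in Huh7 LR. It was one of the members with the largest fold changes, 4.39-fold with a wide interval of 2.77 to 6.95 at 18 to 159 counts per library (edgeR adjusted p = 1.95e-04). HERC6, its neighbour on chromosome 4 and a relative without an established role in human ISG15 transfer, was at 1.42, 1.78 and 1.38 CPM in Huh7 P and 2.79, 3.40 and 3.96 CPM in Huh7 LR, again without overlap (log2 fold change 1.15 ± 0.19, edgeR adjusted p = 6.21e-04). USP18, which also dampens the interferon receptor, was at 11.3, 12.3 and 12.6 CPM in Huh7 P and 17.5, 18.4 and 17.9 CPM in Huh7 LR. The libraries of each line were close together and the difference was 1.49-fold (edgeR adjusted p = 4.02e-04). USP41, a close copy of USP18, had 0 to 13 counts per library, and how reads that fit several genes were counted is not given in the sources used here.

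The group of entry and release inhibitors also held MX1, MX2 and TRIM22, which restrict viruses at other points. Of its 8 members 6 were tested, and 3 were called higher and 1 lower, against 23.3% and 22.4% of all features. The 3 include IFITM2, which passed the filter on low counts only through Huh7 LR. The IFITM proteins sit in membranes and hinder fusion of enveloped viruses. IFITM3 was at 8.22, 6.03 and 4.88 CPM in Huh7 P and 15.6, 15.8 and 16.4 CPM in Huh7 LR. The Huh7 LR libraries were nearly equal and the Huh7 P libraries spread, without overlap, for a 2.49-fold difference (95% interval 1.94 to 3.20, edgeR adjusted p = 8.08e-05). IFITM2 had 0 counts in each Huh7 P library and 14, 18 and 21 in Huh7 LR 1, 2 and 3. Taking 3 counts for each Huh7 P library, the IFITM2 level was at least 5.72-fold higher in the resistant line, and since it entered the test only through that line no p-value is given. IFITM1 had 8, 8 and 17 counts in the parental line against 48, 18 and 21 in the resistant line, and the lines overlapped once scaled, at 0.111 to 0.260 CPM and 0.257 to 0.736 CPM.

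The rows of the IFITM genes are not independent. IFITM1 lies wholly within the span of IFITM2 at chr11:307631-315272 (GENCODE release 29, GRCh38), they share 351 exon bases on the same strand, and the rows held the same numbers of counts, 18 and 21, in Huh7 LR 2 and Huh7 LR 3. IFITM3 shares 287 exon bases with the opposite-strand transcript AC136475.5, which is not a row of the table. The sum of the 3 rows was therefore tested as well. It was 8.33, 6.16 and 5.14 CPM in Huh7 P, a mean of 6.54 ± 1.63 (SD, n = 3), and 16.6, 16.3 and 17.0 CPM in Huh7 LR, a mean of 16.6 ± 0.368 (SD, n = 3). The log2 fold change of the sum was 1.34 ± 0.16, or 2.54-fold, with an edgeR adjusted p of 5.06e-05, and a two-sided exact permutation test gave p = 0.10, the smallest that 3 against 3 libraries allow. Summed FPKM gave a log2 ratio of 1.37.

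The dynamin-like GTPases MX1 and MX2 went opposite ways. MX1, a cytoplasmic inhibitor of many RNA viruses, was at 0.460, 0.616 and 0.627 CPM in Huh7 P and 1.60, 1.61 and 0.894 CPM in Huh7 LR. Huh7 LR 3 was the lowest of its line and still above all Huh7 P libraries, with a log2 fold change of 1.27 ± 0.30 (edgeR adjusted p = 0.00487). MX2 was at 36.0, 35.1 and 35.8 FPKM in Huh7 P and 28.4, 31.9 and 28.2 FPKM in Huh7 LR, and its counts were lower in every Huh7 LR library by a log2 fold change of -0.33 ± 0.07 (edgeR adjusted p = 0.00343). TRIM22, a ubiquitin ligase that restricts viral transcription, was low, at 0.306 to 0.348 CPM in Huh7 P and 0.214 to 0.245 CPM in Huh7 LR, and had no call (edgeR adjusted p = 0.277). BST2, the tether that holds budding virus at the cell surface, had 3 counts from Huh7 P and 8 from Huh7 LR, each in 1 library, and RSAD2, which encodes viperin, had 0 counts in every library.

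**Figure D4:**
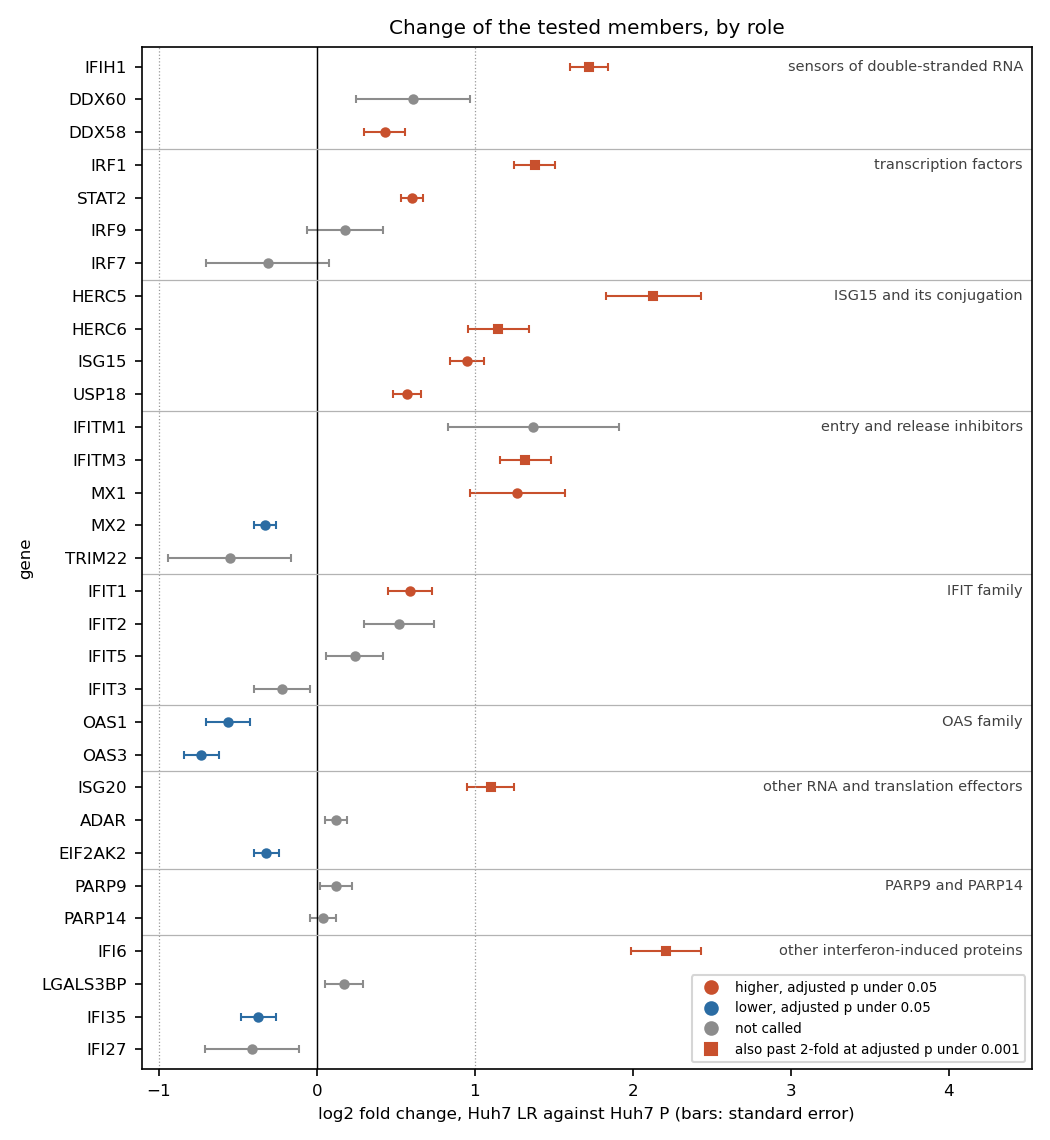
Log2 fold change of 31 tested members, Huh7 LR against Huh7 P, with the standard error as a bar, grouped by role, where squares mark more than 2-fold at an adjusted p under 0.001. All 4 genes of the ISG15 group lie to the right of 0, both tested OAS genes lie to the left, and PARP9 and PARP14 are both grey, and each of the other groups holds a call and a grey point, with IFITM2 left out because its fold has only a lower bound.

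The OAS family makes short chains of linked adenylates that switch on the ribonuclease RNase L, and both of its tested members were called lower in Huh7 LR, against 22.4% of all features. OAS3, the member with the highest affinity for long double-stranded RNA, was at 15.8, 13.8 and 13.8 CPM in Huh7 P and 8.70, 8.22 and 9.31 CPM in Huh7 LR. The groups were clearly apart, with a ratio of 0.604 (95% interval 0.514 to 0.710, edgeR adjusted p = 2.41e-04), the largest decrease among the members called lower. OAS1 was at 8.35, 8.69 and 9.04 CPM in Huh7 P and 4.68, 6.72 and 6.27 CPM in Huh7 LR, lower in every library by a log2 fold change of -0.56 ± 0.14 (edgeR adjusted p = 0.00832). OAS2 had 3 counts in each line and OASL 4 counts from Huh7 P and 0 from Huh7 LR, so neither was tested.

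The IFIT proteins bind foreign RNA and block its translation. IFIT1, which recognises caps without 2′-O methylation, was at 6.54, 7.28 and 9.67 CPM in Huh7 P and 11.1, 11.7 and 12.5 CPM in Huh7 LR. Every Huh7 LR library was higher, with a 1.51-fold difference (95% interval 1.21 to 1.88, edgeR adjusted p = 0.00649). Its near copy IFIT1B had 3 counts in 1 library. IFIT2 was at 1.24 to 1.77 CPM in Huh7 P and 1.78 to 2.65 CPM in Huh7 LR and missed the threshold (log2 fold change 0.52 ± 0.22, edgeR adjusted p = 0.0715). IFIT3 and IFIT5 overlapped between the lines, with log2 fold changes of -0.22 ± 0.18 and 0.24 ± 0.18 (edgeR adjusted p = 0.358 and 0.304). The IFIT genes lie side by side on chromosome 10, between IFIT2 at chr10:89283694-89309276 and IFIT5 at chr10:89414586-89421001.

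Other effectors acting on RNA and translation were divided. ISG20, a 3′ to 5′ exonuclease, was at 2.68, 2.20 and 2.13 CPM in Huh7 P and 5.06, 4.65 and 5.29 CPM in Huh7 LR, a 2.14-fold difference without overlap (edgeR adjusted p = 1.66e-04). EIF2AK2, which encodes PKR, the kinase that halts translation when it binds double-stranded RNA, was at 44.6, 41.1 and 39.4 CPM in Huh7 P and 35.2, 30.4 and 34.4 CPM in Huh7 LR. It was lower in every Huh7 LR library, with a log2 fold change of -0.32 ± 0.08 (edgeR adjusted p = 0.00851). ADAR was at 453, 454 and 443 CPM in Huh7 P and 457, 519 and 486 CPM in Huh7 LR, which gave a log2 fold change of 0.12 ± 0.07 (edgeR adjusted p = 0.201). SAMD9 had 14 counts from Huh7 P and 3 from Huh7 LR and SAMD9L had 0 and 2, and neither was tested. PARP9 and PARP14, ADP-ribosyltransferases that act in interferon signalling, overlapped between the lines, with log2 fold changes of 0.12 ± 0.10 and 0.04 ± 0.08 and 95% intervals of the fold of 0.937 to 1.27 and 0.906 to 1.17.

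Among the other interferon-induced proteins, IFI6, a small membrane protein that protects cells from flaviviruses, had the largest fold change of the members with counts in all 6 libraries. It was at 1.80, 1.39 and 0.887 CPM in Huh7 P and 6.97, 5.81 and 6.22 CPM in Huh7 LR. The lowest Huh7 LR library was well above the highest Huh7 P library, and the difference was 4.64-fold (95% interval 3.30 to 6.53, edgeR adjusted p = 2.09e-05). IFI27, a relative of IFI6 in the same protein family, was at 0.683, 1.05 and 0.841 CPM in Huh7 P and 0.752, 0.728 and 0.454 CPM in Huh7 LR, with overlap and no call (log2 fold change -0.41 ± 0.30, edgeR adjusted p = 0.298). IFI35 was lower, at 11.3, 10.8 and 11.0 FPKM in Huh7 P and 8.11, 9.82 and 8.08 FPKM in Huh7 LR, without overlap (log2 fold change -0.37 ± 0.11, edgeR adjusted p = 0.0144). LGALS3BP, a secreted galectin-binding glycoprotein, overlapped between the lines (log2 fold change 0.17 ± 0.12). IFI44, IFI44L and XAF1 had 0 counts in every library, which allows up to 0.042 to 0.0478 CPM per library at 3 counts and covers counting error only.

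The genes that lie upstream of the members were taken from lists of ligands, receptors, signalling proteins and adaptors. None of the 21 interferon ligand genes in the table had enough reads for a test. IFNA5 had 4 counts in 1 Huh7 P library, IFNL1 had 4 counts in 1 Huh7 LR library, and the other 19 had 0 counts in all libraries. Of the 19 receptor and JAK-STAT genes, all tested, 9 were higher and 4 were lower in Huh7 LR, and of the 13 tested sensor adaptors 2 were higher and 2 were lower. Together that was 11 of 32 higher (34.4%) and 6 of 32 lower (18.8%), against 23.3% and 22.4% of all features, with a median log2 fold change of 0.09. The count of lower genes was 3 without Huh7 P 2. None passed the stricter rule with edgeR, and 13 and 6 had an unadjusted p under 0.05 in the higher and lower direction. The 11 included TLR3 and the 6 included TMEM173, which each passed the filter on low counts only through the line where they were high. When every library had to hold 10 counts or more, 29 were tested, of which 11 were higher and 5 lower.

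STAT3, which transmits signals of the interleukin 6 family, rose from a mean of 90.3 to 168 CPM (log2 fold change 0.89 ± 0.07, edgeR adjusted p = 2.89e-06). The type I receptor chain IFNAR1 was at 38.0 and 38.9 CPM and IFNAR2 at 30.7 and 35.7 CPM, with edgeR adjusted p values of 0.736 and 0.0615. The type III receptor chains IFNLR1 and IL10RB were both higher by a log2 fold change of 0.51 (edgeR adjusted p = 0.00547 and 0.00217). The kinases JAK1, JAK2 and TYK2 had no call, with log2 fold changes of -0.14, 0.06 and 0.10. IRF2, a factor that competes with IRF1 for its sites, was higher by a log2 fold change of 0.26 ± 0.08 (edgeR adjusted p = 0.0173).

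The feedback inhibitor SOCS1 was lower, from a mean of 1.04 to 0.427 CPM (log2 fold change -1.28 ± 0.41, edgeR adjusted p = 0.0249), while the related SOCS3 was higher, from 2.26 to 3.29 CPM (edgeR adjusted p = 0.0357). Among the adaptors, TBK1, the kinase that activates IRF3, was lower in every library, from a mean of 42.5 to 29.8 CPM (log2 fold change -0.51 ± 0.08, edgeR adjusted p = 4.79e-04). MAVS, the mitochondrial adaptor of MDA5 and RIG-I, and IRF3 had log2 fold changes of 0.10 ± 0.09 and 0.01 ± 0.07. TICAM1, the adaptor of TLR3, was higher by a log2 fold change of 0.38 ± 0.10 (edgeR adjusted p = 0.00945). The other called adaptors passed the filter on low counts only through the line where they were high. These were TLR3, an endosomal sensor of double-stranded RNA, with means of 0.114 CPM in Huh7 P and 0.411 CPM in Huh7 LR, and TMEM173, which encodes the DNA-signalling adaptor STING, with 0.286 and 0.0428 CPM.

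**Figure D5:**
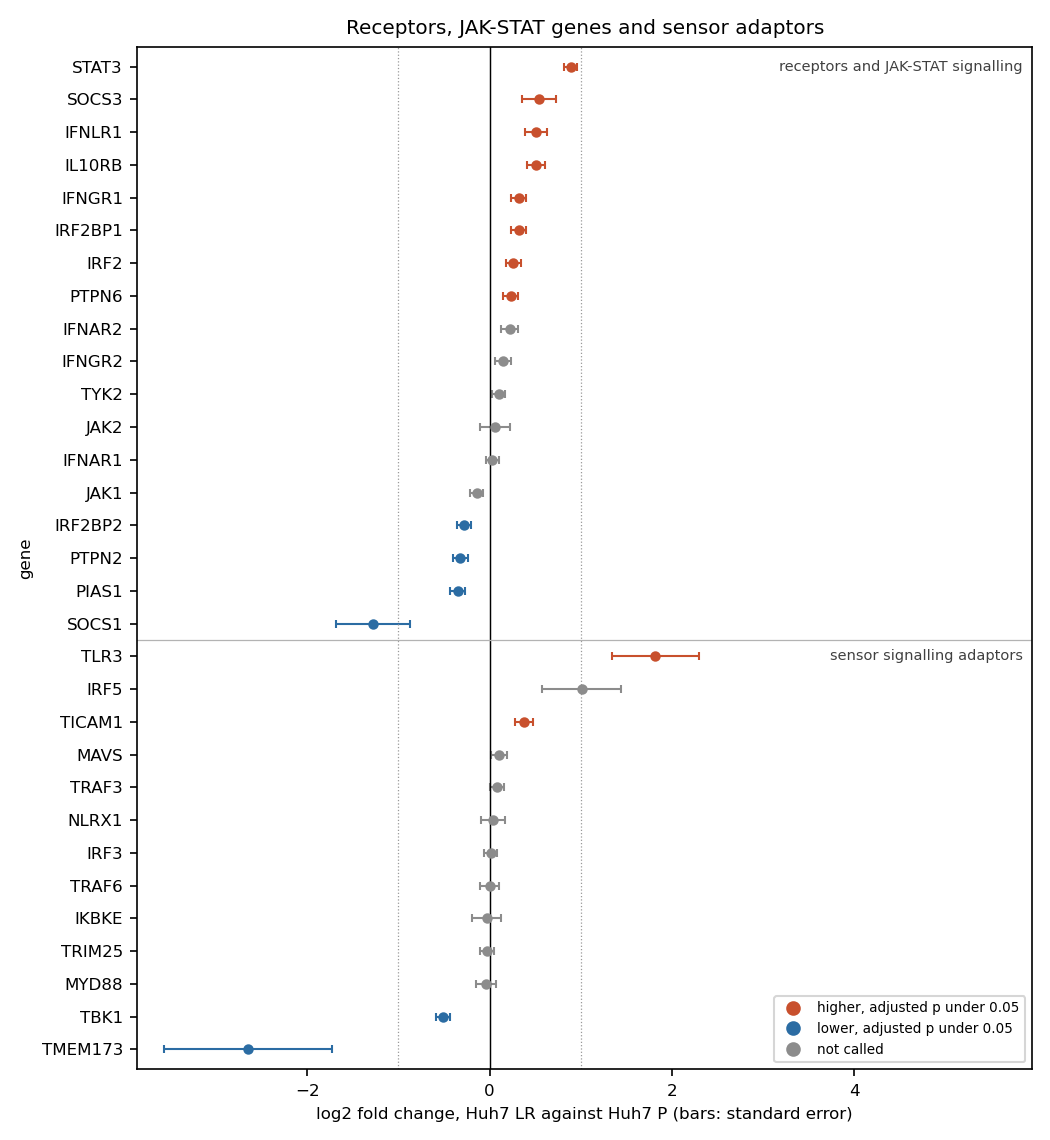
Log2 fold change of 18 of the 19 receptor and JAK-STAT genes and 13 sensor adaptors, Huh7 LR against Huh7 P, with the standard error as a bar. STAT3 at 0.89 lies farthest right of the first group and SOCS1 at -1.28 farthest left, and 9 of the 13 adaptors are uncalled and mostly lie near 0.

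A further list held 49 other interferon-stimulated genes, of which 39 were tested. There 22 were higher in Huh7 LR (56.4%) and 2 were lower (5.13%), against 23.3% and 22.4% of all features, with a median log2 fold change of 0.39. By the stricter rule 3 were higher and 0 lower, against 4.43% and 1.78% of all features, and 4 had an unadjusted p under 0.05 in the lower direction. LAMP3, a lysosomal membrane protein, was at 1.03, 1.38 and 0.795 CPM in Huh7 P and 8.33, 8.45 and 7.55 CPM in Huh7 LR, which gave a log2 fold change of 2.93 ± 0.19 (edgeR adjusted p = 1.18e-06). TNFSF10, which encodes the death ligand TRAIL, rose from a mean of 6.73 to 21.0 CPM (log2 fold change 1.64 ± 0.09), and the nuclear body protein SP110 from 0.988 to 2.74 CPM (1.47 ± 0.21). SP100, another nuclear body protein, rose from 0.463 to 1.28 CPM, and PARP10 from 1.47 to 2.91 CPM (edgeR adjusted p = 0.00703 and 0.00321). APOL1, an apolipoprotein L gene among the 22, passed the filter on low counts only through its Huh7 LR libraries, with means of 0.0408 and 0.277 CPM. The lower genes were PNPT1, a mitochondrial RNA nuclease, from 116 to 78.1 CPM, and the GTPase GBP2, from 19.7 to 13.1 CPM.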

How the data were processed

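Poly(A) RNA libraries of 3 Huh7 P and 3 Huh7 LR samples were sequenced, and the authors deposited 1 table that pairs, for every gene, raw counts with FPKM in each library. The deposited counts are whole and not normalised, and for FPKM the authors corrected for length and depth. The submitters' processing notes name TopHat2, Cufflinks, DESeq and mm10, although the identifiers are human. Build, annotation, strand setting and treatment of multiply mapped reads are otherwise not given in the sources used here. In all, 34 lines of annotation text with 0 counts were left out, and loci without an annotated gene held 2.86% to 3.35% of counts. Columns of the authors' own comparisons were not used.

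The members and lists were chosen with earlier results of these data known, and close copies (USP41, IFIT1B, IFITM5, IFITM10) and summed overlapping genes were added after their values were seen. IFITM10, which passed the filter only through Huh7 LR, had means of 0.306 and 1.06 CPM, and IFITM5 had 2 counts. Every member is named. Library values in full were meant for members past 2-fold, the next largest changes up to 16 genes, the IFITM genes and the transcription factors. From the other lists, genes past 2-fold, up to 4 more per list by size of change, and IFNAR1, IFNAR2, JAK1, TYK2, IRF2 and IRF3 were named. A gene of these lists, although counted in them, and a sequence are not reported here. Full values of EIF2AK2, ADAR, IFI27, IFI35 and MX2, and the naming of IL10RB, JAK2, MAVS, CD68, the genes lower in the further list, IFI30, CXCL10, CXCL11, GBP3, APOL2 and APOL6, were chosen after their values were seen. Counts were filtered with filterByExpr (minimum count 10, minimum total 15) and fitted in R 4.3.3 with edgeR 4.0.16 (TMM factors 0.977 to 1.03, quasi-likelihood test, Benjamini-Hochberg adjustment, no covariate). The scripts were tested on simulated data. Alternatives used DESeq2 1.42.0, limma 3.58.1 on log2 FPKM, other filters and scaling, a replicate block and leaving out each library. Coordinates and exon overlaps come from GENCODE release 29 (GRCh38), where all 42 members had the same symbol. Figures were drawn with matplotlib 3.10.9. No library pair held identical counts.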

Additional observations from a re-analysis of the deposited data

How the results depend on the processing

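Of 150 values of the 10 main results under 15 other settings, 135 counted as unchanged and 15 moved. Counts had to stay within a fixed ratio of the main count, and the median within the replicate spread of 0.09. The IFITM sum had to keep its direction and call. The ratio was loose enough that 16 further interferon-stimulated genes higher, in place of 22, counted as unchanged. The 8 members called higher by more than 2-fold were 5 with limma on log2(FPKM + 0.1), 3 on log2(FPKM + 1), 2 on log2(FPKM + 0.1) without a filter, and 5 to 7 when a library was left out. The median log2 fold change of 0.47 was 0.35 for members with at least 10 counts in every library, 0.27, 0.16 and 0.24 under those limma settings in turn, and 0.35 to 0.54 when a library was left out. The signalling genes called lower numbered 3 to 6 when a library was left out, 3 without Huh7 P 2. The cause of these shifts was not tested. With the FPKM filter 25 members were tested, without it 38, and in the main fit 32. Members higher numbered 11 to 16, members lower 4 to 5, and members called lower by more than 2-fold 0 throughout. The IFITM sum ranged from 1.19 to 1.55 on the log2 scale with an adjusted p of at most 0.00170.

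Among single members, 456 of 468 values kept direction and call. IRF7 reversed to 0.13 without Huh7 P 1 (left-out range -0.57 to 0.13), and PARP14 to -0.02 without Huh7 LR 3 (left-out range -0.02 to 0.14), both without a call. DDX58 lost its call in 4 alternatives, EIF2AK2 and IFI35 in 1 each, IFI35 without Huh7 LR 3 (adjusted p = 0.0626). IFIT2 passed the threshold without Huh7 LR 2 (adjusted p = 0.0340). IFITM1, which entered the test only through Huh7 LR, ranged from 0.75 to 1.83 on the log2 scale when a library was left out. It passed the threshold without Huh7 P 3 or without Huh7 LR 2. The 6 members that were tested only under looser filters had no call there. Same-numbered samples correlated weakly in their deviations (0.03 to 0.07), though more than samples with different numbers (-0.08 to 0.02). The study's methods name no pairing, so the numbers were not taken as pairs. With a replicate block 14 members were higher, 5 were lower and 7 were called higher by more than 2-fold. Members under 50 counts per library, such as IFITM1, IFITM2 and TRIM22, carry the widest errors.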

Other observations

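Some interferon-stimulated genes outside the 42 varied more between libraries of a line than between lines. IFI30, a lysosomal thiol reductase, was at 54.2, 0.810 and 1.19 CPM in Huh7 P and 35.0, 93.8 and 85.6 CPM in Huh7 LR, so that 1 Huh7 P library lay within the Huh7 LR range (edgeR adjusted p = 0.163). The chemokine genes CXCL10 and CXCL11 stayed under 1 CPM in every library and passed the filter on low counts only through Huh7 LR. GBP1, a guanylate-binding protein known for its response to interferon gamma, was higher in Huh7 LR, at 0.362, 0.648 and 0.581 CPM in Huh7 P and 1.69, 0.699 and 1.07 CPM in Huh7 LR (log2 fold change 1.12 ± 0.36, edgeR adjusted p = 0.0263). Its relatives GBP3 and GBP2 were higher and lower, with log2 fold changes of 0.45 ± 0.13 and -0.59 ± 0.10. The apolipoprotein L genes APOL2 and APOL6 were both higher in every library, by log2 fold changes of 0.59 ± 0.10 and 0.90 ± 0.10.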
